A study of Mus musculus with 11 samples.

Results

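Enteroendocrine cells are the hormone-secreting cells of the gut epithelium, and 10 genes that mark them were followed here: the granule proteins Chga and Chgb, the peptide hormone precursors Gcg, Pyy, Sct, Nts, Cck and Ghrl, the serotonin-synthesizing enzyme Tph1 and the transcription factor Neurod1. They were taken by gene name, and all 10 were found among the 13815 named genes of the ileum and colon tables. The mice were males aged 10 weeks. WT mice were compared with Vil-Ogt KO mice (IEC-OGT KO in the sample labels), in which Villin-Cre, active through the intestinal epithelium, deletes a floxed Ogt gene. Whether the endocrine cells themselves lost Ogt is not shown by these tables. OGT is the enzyme that places O-GlcNAc on proteins of the nucleus and cytosol. Epithelium was shaken off the tissue in EDTA. The protocol says that equal amounts of RNA were pooled before the libraries were built, without saying which samples shared a pool. The labels list 2 WT and 3 Vil-Ogt KO libraries of the ileum and from 3 libraries of each genotype of the colon, 11 libraries in all, and do not say whether these came from separate mice.

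Enteroendocrine cells are scattered singly along crypts and villi and arise from secretory progenitors that switch on Neurog3 and then Neurod1. They store peptides together with chromogranins in dense granules and release them when nutrients or microbial products reach their luminal side. L cells of the distal gut make the products of Gcg (GLP-1, GLP-2) and Pyy, whereas Cck, Sct and Ghrl are typical of more proximal segments, Nts of the ileum, and serotonin of enterochromaffin cells along the whole gut. Because the RNA came from all epithelial cells at once, fewer endocrine cells and less RNA per endocrine cell cannot be told apart in any value below.

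Each tissue has 1 value per gene and genotype, the log2 of FPKM. FPKM counts fragments mapped to a gene, scaled to its length and to the depth of sequencing. The authors made this value, and which libraries entered it is not stated in the sources used here. Values of single libraries were not analysed here, so the differences below have no replicate check, error or p-value, and a difference of at least 1 on the log2 scale is called past 2-fold as a rule of size. Past that limit lay 15.3% of 12629 named loci as higher and 15.2% as lower in the Vil-Ogt KO ileum (30.5% either way), and 7.27% of 12814 as higher and 8.38% as lower in the Vil-Ogt KO colon (15.6% either way). Ogt was lower in the Vil-Ogt KO in both tissues, with log2 differences of -1.42 for ileal and -1.99 for colonic epithelium, the direction the labels give. Markers of other cells of the isolates differed between genotypes. Over the 10 colonocyte genes found in both tables, summed FPKM was 1211 in WT ileum, 176 in Vil-Ogt KO ileum and 3763 in WT colon. The 14 small-intestinal enterocyte genes in both tables summed to 6016, 38333 and 764 FPKM in the same order. Car1, a colonocyte gene without a colonic value and so outside that sum, stood at 5914 FPKM in WT ileum and 170 in Vil-Ogt KO ileum. The 10 colonocyte genes above 0 FPKM in both ileal genotypes, a set that includes Car1, were all past 2-fold lower in the Vil-Ogt KO. In the colon, 8 of 14 colonocyte genes were past 2-fold lower (median -1.06) and 10 of 14 enterocyte genes past 2-fold higher (median 1.455) in the Vil-Ogt KO. Of the other colonic genes of these lists, 1 colonocyte gene (Scnn1b, 1.58) was past 2-fold higher, and 0 with 1 FPKM added. All 13 measured genes of intraepithelial lymphocytes were past 2-fold higher in the Vil-Ogt KO ileum (median 2.37, summed FPKM 115 and 623). Among their colonic values, 6 of 13 were past 2-fold lower. With 1 FPKM added, 12 ileal values were past 2-fold higher, but only 2 colonic values were past 2-fold lower. Centring on the median of all named loci left 5 colonic values past 2-fold lower. Of 11 genes of stem and dividing cells, 7 were past 2-fold lower in the ileum and 1 in the colon. Whether the colonocyte genes of WT ileum came from 1 of its 2 libraries or from both cannot be told from 1 value per genotype. This uncertainty bears on every ileal WT level and difference below.

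The control sequences of 4 members are shown because these genes stand for the patterns described below. Chga stands for the granule proteins, which were past 2-fold lower in the Vil-Ogt KO ileum. Sct, Cck and Ghrl were past 2-fold higher in the Vil-Ogt KO colon. Each sequence is the 150 bases before the RefSeq start of the gene (GRCm38.p6), on the strand of the gene. For Ghrl, which has several such starts, the one nearest its locus was taken. Capitals mark the E-box letters CANNTG, and TGACG, the core of the cAMP response element, on either strand. Factors of the NEUROD and NEUROG class bind only some forms of CANNTG, and the forms marked were not sorted by factor.
Chga, chr12:102554791-102554940, plus strand: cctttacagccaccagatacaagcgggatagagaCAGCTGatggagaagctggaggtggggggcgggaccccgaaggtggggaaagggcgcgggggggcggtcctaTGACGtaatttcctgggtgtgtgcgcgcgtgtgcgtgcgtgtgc
Cck, chr9:121495695-121495844, minus strand: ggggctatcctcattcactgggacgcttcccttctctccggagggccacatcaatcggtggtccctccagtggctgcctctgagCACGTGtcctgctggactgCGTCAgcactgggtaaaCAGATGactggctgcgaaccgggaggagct
Sct, chr7:141279134-141279283, minus strand: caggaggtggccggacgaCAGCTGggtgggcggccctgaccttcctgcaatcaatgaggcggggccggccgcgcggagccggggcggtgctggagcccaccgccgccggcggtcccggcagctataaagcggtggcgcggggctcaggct
Ghrl, chr6:113719912-113720061, minus strand: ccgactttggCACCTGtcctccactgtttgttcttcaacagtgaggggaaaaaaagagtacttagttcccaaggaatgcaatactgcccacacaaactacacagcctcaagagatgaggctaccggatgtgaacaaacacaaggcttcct
Over the 250 bases before the start, CANNTG was present in 9 of the 10 members, in all but Tph1, against 66.2% of 32851 promoter windows of RefSeq. TGACG was present in 5 members (Chga, Chgb, Cck, Nts and Tph1) against 17.8% of windows, and CAGATG, one form of CANNTG, in 3 (Cck, Gcg and Sct) against 14.4%. The full palindrome TGACGTCA was found in Chgb only, against 1.55% of windows. These are matches of letters only, shared by genes with differences of either sign.

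The granule protein genes were the members past 2-fold lower in the Vil-Ogt KO ileum. Chga (chromosome 12, bases 102554969 to 102565027 of mm10) encodes chromogranin A, which packs hormones and amines into dense granules in nearly all endocrine cells. It stood at 30.3 FPKM in WT ileum, 11.5 in Vil-Ogt KO ileum, 56.5 in WT colon and 39.9 in Vil-Ogt KO colon, so that the genotypes lay 1.40 apart on the log2 scale in the ileum (2.64-fold lower in the Vil-Ogt KO) and 0.50 apart in the colon (1.41-fold lower). Chgb (chromosome 2, bases 132781278 to 132795072), encoding its relative chromogranin B, stood at 41.1, 12.2, 73.0 and 44.3 FPKM in the same order. Its log2 differences were -1.75 in the ileum, or 3.36-fold lower, and -0.72 in the colon, or 1.65-fold lower. Both granule genes were therefore past 2-fold lower in the ileum and within 2-fold in the colon, and they kept nearly the same ratio to each other: Chgb over Chga was 1.36, 1.06, 1.29 and 1.11. Among named loci of the ileum, 8.29% had a lower log2 difference than Chga and 5.04% a lower one than Chgb. In both genotypes the colon level of either gene was above the ileal level, and the colonocyte genes given above were also lower in the Vil-Ogt KO ileum. Their part in these differences was not tested.

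**Figure D1:**
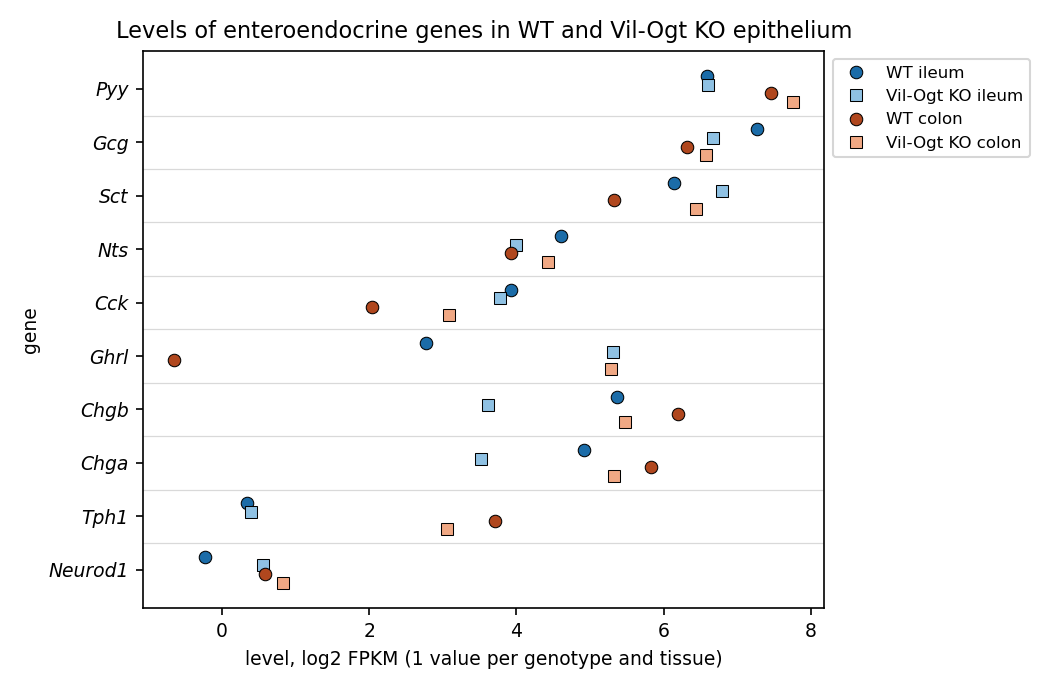
Level of each of the 10 genes as log2 FPKM (x axis), with 1 point for each genotype and tissue and no error, since the tables give 1 value each. Chga and Chgb lie lowest in Vil-Ogt KO ileum, and the WT colon point of Ghrl, at -0.65, lies far below its other points.

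Gcg and Pyy, the L-cell hormones, were among the 3 highest of the 10 genes in each genotype and tissue, and neither was past 2-fold different between genotypes. Gcg (chromosome 2, bases 62474527 to 62483653) gives proglucagon, the precursor of GLP-1 and GLP-2. Its levels were 154 FPKM in WT ileum, 102 in Vil-Ogt KO ileum, 79.3 in WT colon and 95.7 in Vil-Ogt KO colon, which gives log2 differences of -0.60 between ileal and 0.27 between colonic samples. Pyy (chromosome 11, bases 102106673 to 102107908 in the colon table) encodes peptide YY, which slows transit and curbs appetite. It was level between genotypes in the ileum, at 96.3 FPKM in WT and 97.0 in Vil-Ogt KO (log2 difference 0.01). In the colon Pyy stood at 176 and 217 FPKM, a log2 difference of 0.30. Gcg therefore exceeded Pyy in WT ileum, with a ratio of 1.60, was close to it in Vil-Ogt KO ileum at 1.05, and was below it in both colon genotypes at 0.45 and 0.44. Set against the granule gene of the same condition, the ratio of Pyy to Chga was 3.18 in WT ileum, 8.46 in Vil-Ogt KO ileum, 3.12 in WT colon and 5.43 in Vil-Ogt KO colon. The ratio of Gcg to Chga was 5.10, 8.88, 1.40 and 2.40 in the same order. Hormone and granule transcripts thus did not keep a common proportion across genotypes.

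Sct and Cck, precursors of proximal hormones, were higher in the Vil-Ogt KO colon. Sct (chromosome 7, bases 141278331 to 141279148 in the colon table) encodes secretin, which stimulates pancreatic bicarbonate. It stood at 40.2 FPKM in WT colon and 86.8 in Vil-Ogt KO colon, a log2 difference of 1.11. In the ileum it went from 70.5 to 111 FPKM, a log2 difference of 0.65 that is within 2-fold. Cck (chromosome 9, bases 121489824 to 121495689) encodes cholecystokinin, which contracts the gallbladder. It was 4.11 FPKM in WT colon and 8.51 in Vil-Ogt KO colon, a log2 difference of 1.05, but 15.2 and 13.6 FPKM in the ileum, a log2 difference of -0.16. Sct and Cck lay just past 2-fold in the colon, and the next member below that limit was Chgb, with a difference of -0.72. With 1 FPKM added before the logarithm, the colonic difference of Cck was 0.90, within 2-fold, and that of Sct was 1.09. The colonocyte and enterocyte genes of the colon given above differed between the same samples, and their part in these differences was not tested.

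Ghrl had the widest range of the 10 genes. It encodes ghrelin, a hormone best known from the stomach that stimulates appetite and growth hormone release. In the colon (chromosome 6, bases 113716119 to 113719880) it stood at 0.637 FPKM in WT and 39.1 in Vil-Ogt KO, a log2 difference of 5.94 or 61.4-fold higher, and 99.9% of named loci had a lower difference. In the ileum it stood at 6.82 FPKM in WT and 39.7 in Vil-Ogt KO, a log2 difference of 2.54 or 5.82-fold higher. The Vil-Ogt KO levels of both tissues were thus nearly equal, 0.02 apart on the log2 scale, while the WT levels were 3.42 apart. The ileal locus of these values runs from base 113713501 to 113719880 and is longer than the colonic one. The tissues are thus compared over unlike loci. A second ileal locus named Ghrl covers the same ileal bases, with 1.69 FPKM in WT and 1.60 in Vil-Ogt KO. GENCODE lists the antisense gene Gm26982 and the unclassified transcript Gm44033 on the opposite strand there, and the colon table has an unnamed neighbouring locus at log2 FPKM 1.27 in WT and 1.11 in Vil-Ogt KO. Strand-specific counting is not stated in the sources used here, so sense and antisense reads at this locus cannot be told apart. Neither of those loci, unlike that reported for Ghrl, differed past 2-fold between genotypes.

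Nts, Tph1 and Neurod1 differed within 2-fold in both tissues. Nts (chromosome 10, bases 102481756 to 102490418) encodes neurotensin, a peptide of ileal endocrine cells that aids fat uptake. It stood at 24.3 FPKM in WT ileum and 15.9 in Vil-Ogt KO ileum (log2 difference -0.61), and at 15.1 and 21.6 FPKM in the colon (0.51), so that the sign was not shared by the tissues. Tph1 (chromosome 7, bases 46644641 to 46672537) encodes the rate-limiting enzyme of serotonin synthesis in the gut. It was near 1 FPKM in the ileum, with 1.27 in WT and 1.32 in Vil-Ogt KO, and 13.1 and 8.34 FPKM in the colon, a log2 difference of -0.65. Mouse mast cells also express Tph1. Of 12 mast cell genes, 4 were measured in the colon, and 3 of them were past 2-fold higher in the Vil-Ogt KO (Mcpt1, Mcpt2 and Cma1, with log2 differences of 2.0, 1.83 and 1.65). The share of all colonic loci past 2-fold higher was 7.27%. In the ileum 2 of 4 mast cell genes were past 2-fold higher and 1 lower, beside 15.3% and 15.2% of ileal loci. With 1 FPKM added, 0 ileal mast cell genes were higher and 1 was lower. Their part in the level of Tph1 was not tested. Neurod1 (chromosome 2, bases 79452641 to 79456636), the factor that drives terminal endocrine differentiation, was low in every condition, at 0.853 and 1.47 FPKM in the ileum and 1.5 and 1.78 in the colon, with log2 differences of 0.79 and 0.25. Its locus lies within Cerkl, which GENCODE places on the same strand, and overlaps the non-coding gene Gm26755 on the other. Of 14 genes of enteric neurons and glia, 1 was measured in the ileum (Ret) and 2 in the colon, where Ret stood at 0.339 FPKM in WT and 1.75 in Vil-Ogt KO (log2 difference 2.37) and Uchl1 at 0.616 and 0.356 (-0.79). The part of such cells in the colonic levels was not tested.

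**Figure D2:**
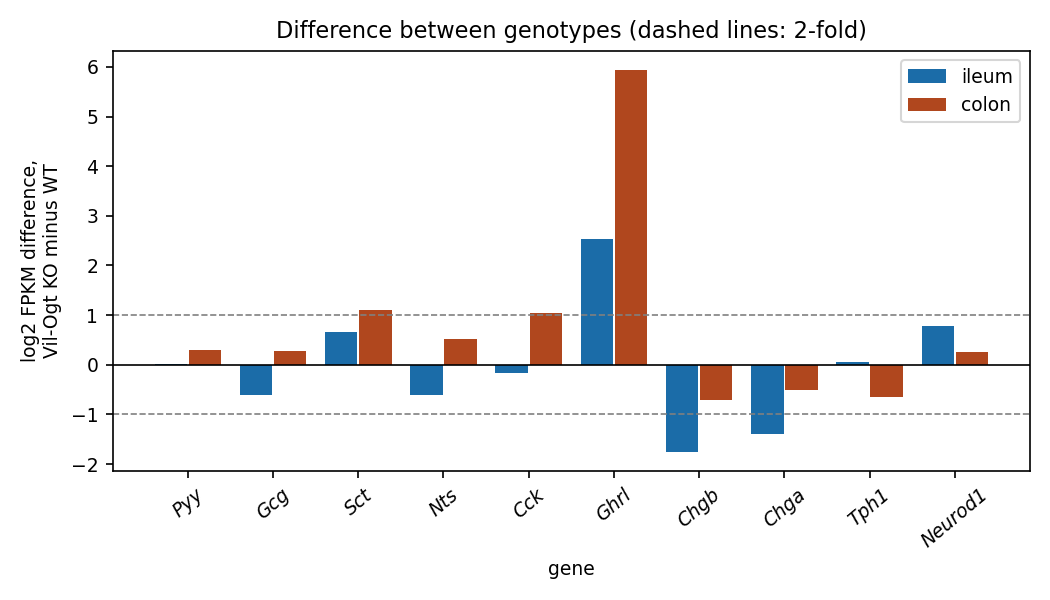
Difference in log2 FPKM, Vil-Ogt KO minus WT, for each gene in the ileum and in the colon, with dashed lines at 2-fold. In the ileum Chga (-1.40), Chgb (-1.75) and Ghrl (2.54) lie beyond the lines, and in the colon Sct (1.11), Cck (1.05) and Ghrl (5.94).

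In all, 1 of the 10 genes was past 2-fold higher and 2 were past 2-fold lower in the Vil-Ogt KO ileum, shares near the 15.3% and 15.2% of all named loci. In the colon 3 were past 2-fold higher and 0 lower, beside 7.27% and 8.38% of named loci. The median log2 difference of the 10 genes was -0.075 in the ileum, beside -0.070 over all named loci, and 0.285 in the colon, beside -0.045. Every gene except Tph1 and Neurod1 had a more positive difference in the colon than in the ileum. The share of all named loci of which this holds is not given here, so it is not read as a trait of these genes. The gap between the tissues was widest for Ghrl (3.40), followed by Cck (1.21), Nts (1.12) and Chgb (1.03), and was smallest for Pyy (0.29). Without library values this gap was not tested.

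Summed over the 6 peptide precursors, hormone mRNA was almost level between genotypes in the ileum, with 368 FPKM in WT and 379 in Vil-Ogt KO, and was 1.48-fold higher in the Vil-Ogt KO colon, with 316 and 468 FPKM. Gcg made up 42.0% of the sum in WT ileum and 26.9% in Vil-Ogt KO ileum, while Sct went from 19.2% to 29.2% and Ghrl from 1.86% to 10.5%. In the colon Pyy made up 55.8% in WT and 46.3% in Vil-Ogt KO, Sct 12.7% and 18.5%, and Ghrl 0.202% and 8.35%. The leading precursor was Gcg in WT ileum, Sct in Vil-Ogt KO ileum and Pyy in the colon of both genotypes. In Vil-Ogt KO ileum the first 3 precursors were close together, with Sct at 111 FPKM, Gcg at 102 and Pyy at 97.0.

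**Figure D3:**
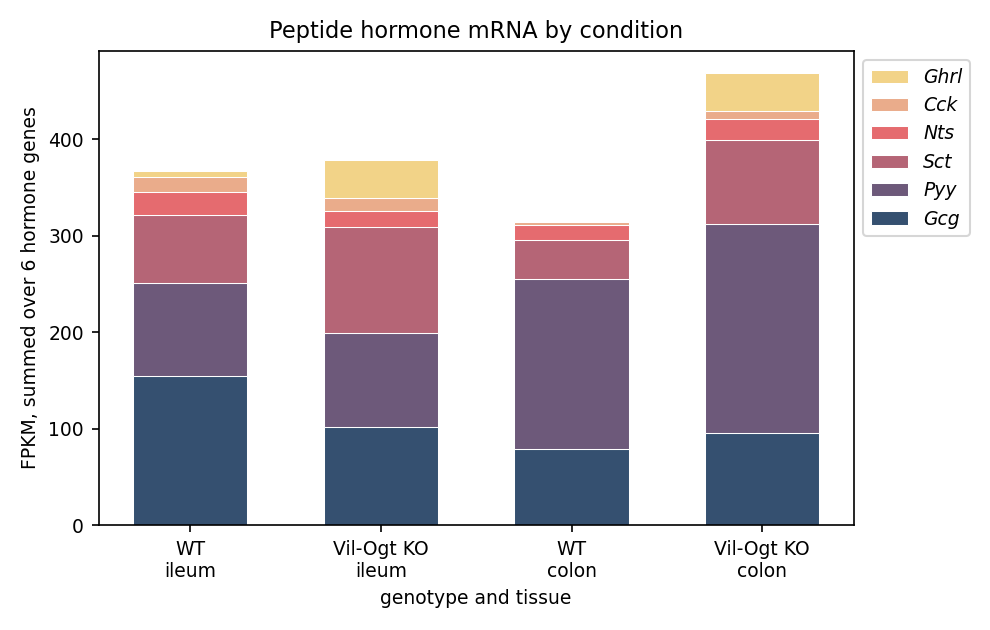
Stacked FPKM of the 6 hormone precursors (y axis) in each genotype and tissue, with 1 value per bar segment. The bars reach 368 and 379 FPKM in WT and Vil-Ogt KO ileum and 316 and 468 FPKM in WT and Vil-Ogt KO colon, and the Ghrl segment is visible mainly in the Vil-Ogt KO bars.

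The regional pattern was set out next, with the reservation that ileum and colon tables were normalized separately. The locus of Ghrl was also longer in the ileum than in the colon. In WT mice, Ghrl and Cck were past 2-fold higher in the ileum, by 3.42 and 1.89 on the log2 scale, and Tph1 was past 2-fold higher in the colon, with 13.1 against 1.27 FPKM. Over all named loci in both tables, 5.57% were past 2-fold higher in the WT ileum and 12.7% in the WT colon. In Vil-Ogt KO mice 0 of the 10 genes were past 2-fold higher in the ileum, beside 8.2% of loci, and 4 were past 2-fold higher in the colon, beside 14.1%. These 4 were Chga, Chgb, Pyy and Tph1, with colon levels 3.48-fold, 3.63-fold, 2.23-fold and 6.32-fold those of the ileum. The genes with a WT ileal excess, Ghrl, Cck, Gcg (0.96), Sct (0.81) and Nts (0.68 on the log2 scale), had ileum-minus-colon differences of 0.02, 0.68, 0.09, 0.35 and -0.44 in the Vil-Ogt KO. Hormone levels of the tissues were therefore closer together in the Vil-Ogt KO for 5 of the 6 precursors, all but Pyy. The share of all loci that lay closer together is not given here. By the shares above, loci past 2-fold apart between tissues were more frequent in the Vil-Ogt KO than in WT, in both directions. Insl5, the insulin-like peptide of colonic L cells, marked the colon in both genotypes, with log2 FPKM of 6.18 and 5.68 there against 0.35 and -0.84 in WT and Vil-Ogt KO ileum.

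Other hormones and secreted peptides of the epithelium were measured for 12 of 22 listed genes in each tissue. In the ileum 7 were past 2-fold higher in the Vil-Ogt KO and 2 lower, and in the colon 5 were higher and 1 lower, with medians of 1.32 and 0.56, beside 15.3% and 15.2% of ileal and 7.27% and 8.38% of colonic loci. The ileal counts were 5 and 1 and the colonic counts 2 and 0 with 1 FPKM added. The precursor of substance P, Tac1, a peptide of enterochromaffin cells, was 21.4 FPKM in WT ileum and 2.62 in Vil-Ogt KO ileum, a log2 difference of -3.03, but 10.5 and 9.19 FPKM in the colon. Sst, the inhibitory hormone of D cells, was within 2-fold in both, with log2 differences of -0.37 and -0.35. Gip, the incretin of K cells, stood at 3.32 FPKM in WT ileum and 11.1 in Vil-Ogt KO ileum, a log2 difference of 1.74. Penk, which encodes enkephalins, had log2 differences of 4.64 for ileal and 5.82 for colonic epithelium, although it reached only 1.93 FPKM in the Vil-Ogt KO ileum and 0.953 in the Vil-Ogt KO colon. Guca2b, uroguanylin, had an ileal difference of 2.88, and Adm, adrenomedullin, an ileal one of 3.08 and a colonic one of 1.94. Fgf15 stood at 1.80 FPKM in WT ileum and 30.3 in Vil-Ogt KO ileum, a log2 difference of 4.07. Insl5 (-1.19) was the other lower peptide of the ileum, and in the colon Ppy, pancreatic polypeptide, was lower by 1.05. All 16 enterocyte genes measured in the ileum were also past 2-fold higher in the Vil-Ogt KO, with a median of 3.54. The part of enterocytes in the ileal counts was not tested.

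Of 14 measured genes that process and store the peptides, 2 were past 2-fold in each tissue, beside 30.5% of ileal and 15.6% of colonic named loci, with medians of -0.135 (ileal) and -0.08 (colonic). Pcsk1, the prohormone convertase that cuts proglucagon into GLP-1, was 5.98 FPKM in WT ileum and 2.45 in Vil-Ogt KO ileum, a log2 difference of -1.29, and was -0.34 in the colon. Cpe, the carboxypeptidase that trims the cut peptides, had differences of -0.57 and -0.09, and Scg5, a helper of convertase folding, -0.81 and -0.61. Bex2, an endocrine-enriched gene, was past 2-fold higher in both tissues, by 1.17 and 2.11, and Ptprn2, a granule membrane protein, in the colon, by 1.69. With 1 FPKM added, the ileal difference of Bex2 was 0.84. In the release machinery, Stx1a and Syt7 were past 2-fold higher in both tissues (ileal differences 1.34 and 1.06, colonic differences 1.13 and 1.53), while the granule-docking gene Rab3a had differences of -1.16 and -0.99. With 1 FPKM added, Stx1a was within 2-fold in both tissues (0.89 and 0.73), as were Syt7 (0.92) and Rab3a (-0.83) in the ileum. The lists of exocytosis genes had 8 of 11 genes within 2-fold in the ileum and 9 of 12 in the colon.

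Of 9 genes of serotonin handling measured in the ileum, 5 were past 2-fold higher in the Vil-Ogt KO, beside 15.3% of named loci, and 1, the vesicular transporter Slc18a2, was lower (-1.04, at 0.693 FPKM in WT). The higher genes were Ddc, which makes serotonin from the TPH1 product (1.44), Gch1 of cofactor synthesis (1.48), the vesicular transporter Slc18a1 (1.16), the degrading enzyme Maob (1.43) and the reuptake transporter Slc6a4 (1.78). Enterocytes express Ddc, Maob and Slc6a4 too, and the 16 enterocyte genes measured in the ileum were all past 2-fold higher in the Vil-Ogt KO, with a median of 3.54. The part of enterocytes in the serotonin gene differences was not tested. Slc18a1 (0.89) and Slc18a2 (-0.34) were within 2-fold with 1 FPKM added, and centring also took Slc18a2 within it. In the colon 1 of 10 measured genes, Gch1 at 1.35, was past 2-fold higher, beside 7.27% of named loci. Tph1 itself, given above, was within 2-fold in both tissues, and the gap between the tissues was not tested.

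Among endocrine transcription factors, Neurog3, which commits secretory progenitors to the endocrine fate, was past 2-fold higher in both tissues. It was 2.31 FPKM in WT and 6.15 in Vil-Ogt KO ileum (log2 difference 1.41), and 1.06 and 2.62 in the colon (1.31). With 1 FPKM added these differences were 1.11 and 0.82, the latter within 2-fold. Atoh1, the factor of all secretory cells, had an ileal difference of -1.02 and a colonic one of 0.86. Several factors that act after Neurog3 were within 2-fold in both tissues, with ileal and colonic differences of 0.35 and -0.05 for Insm1, 0.88 and 0.28 for Rfx6, 0.50 and 0.12 for Pax6 and -0.24 and 0.36 for Nkx2-2. Of these, Rfx6 and Pax6 were below 1 FPKM in every condition. Nkx2-2 was at 0.586 FPKM in WT ileum and 0.497 in Vil-Ogt KO ileum. At such levels, differences within 2-fold say little. Fev, a factor of enterochromaffin cells, had differences of -1.03 and -0.29, and Foxa2 of -1.04 and -0.86. Of the whole list, 14 of 19 factors were within 2-fold in the ileum (2 higher, 3 lower) and 19 of 23 in the colon (3 higher, 1 lower), of which 11 and 13 had a mean of at least 1 FPKM. The factors past 2-fold stand beside 30.5% of ileal and 15.6% of colonic loci. With 1 FPKM added, 1 ileal factor was higher and 0 lower, and 0 colonic factors were past 2-fold, while centring on the median of all loci left 0 lower in either tissue. Of the secretory neighbours, 5 of 10 goblet cell genes were past 2-fold lower among ileal values and 6 past 2-fold higher among colonic ones, where 1 was lower. Of 10 Paneth cell genes 7 were higher and 1 (Reg3g, -1.21) lower in the ileum, and 5 of 7 were higher in the colon, or 3 with 1 FPKM added. The shares of all loci are those given for the other peptides. Of 8 measured tuft cell genes 5 were lower in the ileum, with a summed level of 8.13 FPKM in WT, but 0 were past 2-fold lower with 1 FPKM added, and 1 when genes averaging under 1 FPKM were left out.

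**Figure D4:**
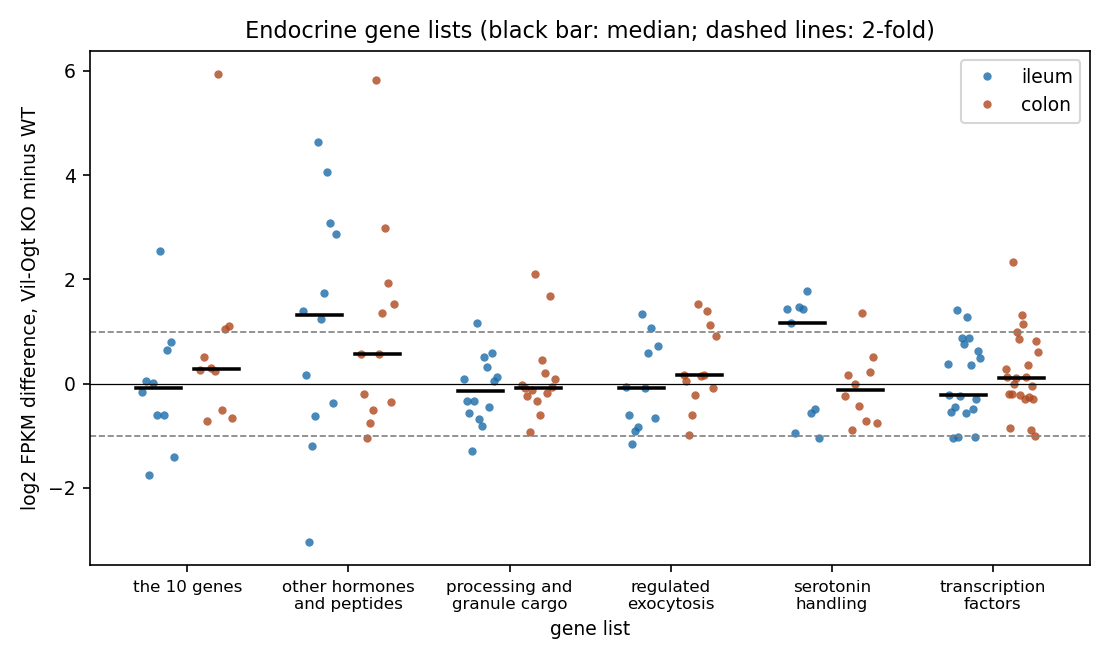
Difference in log2 FPKM, Vil-Ogt KO minus WT (y axis), of every measured gene in the set of 10 and in 5 further gene lists. Ileum and colon stand side by side, with a black bar at the median and dashed lines at 2-fold. The medians of other hormones and peptides are 1.32 and 0.56, those of processing and granule cargo -0.135 and -0.08, and those of transcription factors -0.21 and 0.10.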

How the data were processed

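RNA of isolated epithelium was sequenced as 1 × 75 bp reads, trimmed with Trimmomatic and aligned to mm10 with TopHat, and the submitters' notes also name Bowtie and Cufflinks. The deposited values are log2 FPKM, made by the authors as 1 value per locus, genotype and tissue. How libraries were combined into them is not given in the sources used here, nor is the depth of each library. A value of -10 was read as 0 FPKM. The tables also hold the authors' ratios, q-values and significance marks, which were not used, and the study names DESeq2 for its own test.

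Loci were matched by gene symbol, with comma-separated entries divided, and where several loci carried 1 name, the locus of highest mean FPKM was kept. Background shares count each entry above 0 FPKM in both genotypes once. Differences are Vil-Ogt KO minus WT. Starts are printed as base 1, 1 above the table's value. The members and lists were chosen with earlier results of these data known. Named genes are the members, up to 6 genes past 2-fold with a mean of at least 1 FPKM per list and tissue, and hormone, processing and factor genes of at least 1 FPKM in any condition. Other list genes named (Slc18a2, Rfx6, Pax6, Ret, Uchl1, Scnn1b and Ffar4) were added after their values were seen. Calculations used Python 3.11.15 with NumPy 2.4.6 and pandas 2.3.3, and were tested on simulated tables. Annotation came from GENCODE vM21 and promoter windows from RefSeq.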

Additional observations from a re-analysis of the deposited data

How the results depend on the processing

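Changing the limit, adding a constant or setting a minimum mean cannot reverse the sign of a difference. Under centring and summing of loci, which can, every member past 2-fold kept its sign. At a limit of 1.5-fold, the ileal values gave 3 higher and 4 lower members, beside 6497 of 12629 named loci past the limit either way. The colonic values gave 3 higher and 2 lower members, beside 4138 of 12814 loci. Shares of loci by direction at this limit are not given here. At 4-fold, 0 were lower in the ileum and 1 was higher in the colon, among 1303 and 598 loci, 1 member was higher in WT ileum than WT colon, and 1 was higher in Vil-Ogt KO colon than Vil-Ogt KO ileum. With log2(FPKM + 1), 2328 ileal and 915 colonic loci were past 2-fold, against 3855 and 2005 without the added 1, and the difference of Ghrl in the colon was 4.62 in place of 5.94. With that added 1, members past 2-fold higher in the colon numbered 2 in place of 3, Cck (0.90) being lost. Calls of other named genes lost with it in the ileum were Bex2 (0.84), Stx1a (0.89), Syt7 (0.92), Rab3a (-0.83), Slc18a1 (0.89) and Slc18a2 (-0.34). Insl5 (-0.55), Atoh1 (-0.89), Foxa2 (-0.55) and Fev (-0.51) were lost there too. In the colon the calls lost were Neurog3 (0.82), Stx1a (0.73), Penk (0.94), Ppy (-0.88), Npy1r (-0.77) and Scnn1b (0.645). All 5 tuft cell calls of the ileum were lost too, leaving 0. Adding 0.1, summing loci of a name, a minimum mean of 1 FPKM, and centring changed none of the member counts by over 1.5 times. Centring did take the members past 2-fold higher in WT ileum than WT colon from 2 to 3. Centring left 0 of 3 ileal and 0 of 1 colonic lower transcription factors and 0 of 1 lower ileal serotonin genes. Counts for lists moved by over 1.5 times in 41 of 192 recalculations. No paired analysis was possible because the tables hold no values of single libraries, and no library could be left out for the same reason.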

Other observations

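Receptors through which endocrine cells sense the lumen were mostly measured at low levels. Ffar2, a receptor for short-chain fatty acids, was 4.29 FPKM in WT colon and 13.1 in Vil-Ogt KO colon, a log2 difference of 1.61, and 4.23 and 2.30 FPKM in the ileum. Ffar4, a receptor for long-chain fatty acids, was within 2-fold in both tissues, with differences of -0.31 and 0.84. Gpr35 was lower in the ileum by 1.16 and within 2-fold in the colon (-0.39). Slc5a1, the glucose carrier that L cells share with enterocytes, stood at 91.1 and 564 FPKM in WT and Vil-Ogt KO ileum, and at 62.7 and 36.0 in WT and Vil-Ogt KO colon.

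Dpp4 and Mme, enzymes that cut hormones after release, were higher in the Vil-Ogt KO ileum. Dpp4, which inactivates GLP-1, stood at 24.8 FPKM in WT and 77.2 in Vil-Ogt KO there (log2 difference 1.64), and at 10.1 and 6.06 in the colon (-0.74). Mme, neprilysin, went from 0.895 to 10.3 FPKM in the ileum. Both belong to the enterocyte brush border, and the part of enterocytes in these differences was not tested. Sort1, a neurotensin-binding sorting receptor, had differences of -1.27 and -0.50. Npy1r, a receptor for peptide YY, was 2.11 FPKM in WT colon and 0.829 in Vil-Ogt KO colon.

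Of 10923 genes whose mean reached 1 FPKM in each table, those nearest to Chga in the shape of their 4 levels were Ass1, Tmem63a and Capn13, at distances of 0.09, 0.15 and 0.15 on the log2 scale. Nearest to Pyy were Gpld1, Stk38l and Mir700, at 0.05, 0.06 and 0.07, and nearest to Nts were Pinx1, Tomm5 and Nagpa, at 0.06, 0.08 and 0.08. With 4 conditions, such distances describe these levels only.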
